A study of Mus musculus with 9 samples.

Results

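The effect of slow vortex flow on brain endothelial gene expression was examined in bEnd.3 cells, endothelium of the mouse brain that was made to grow as a line with the middle T antigen of polyoma virus. Of the 9 RNA-seq libraries of the study, 6 enter the comparison: 3 Vortex libraries, from cells under vortex flow at 0.5 to 2 dyne/cm2, and 3 PSS libraries, from cells under laminar flow at 10 dyne/cm2. The submitters took PSS as the physiological shear of brain vessels and Vortex as a model of the slow, irregular flow inside a late aneurysm sac. The other 3 libraries, HSS, came from cells under laminar flow at 20 dyne/cm2 and are used here to estimate the spread and as another reference for single genes. Cells of all groups came from the same line and were grown on glass coverslips in a parallel-plate flow chamber, and a group kept without flow was not analysed here. Vortex and PSS differ in both the pattern and the size of the shear, so these cannot be told apart. The model holds a single immortalised cell type, without blood, smooth muscle or matrix of a vessel wall. The labels do not say whether the 3 libraries of a group came from separate cultures, and they describe the RNA that was sequenced as mixed. The p-values therefore measure the spread between these libraries, which may be technical.

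Endothelial cells sense the drag of blood through junctional, ciliary and channel proteins. Steady laminar shear is known to raise the transcription factors Klf2 and Klf4 and the nitric oxide synthase Nos3. These factors hold down NF-kappaB, the transcription factor behind adhesion molecules and chemokines, and slow or disturbed flow is known for the opposite state, found at bends and branches of arteries. The title of the study speaks of a phenotypic transition of the endothelium under flow. Such a change is known towards a mesenchymal state, with loss of junction proteins and gain of contractile and matrix genes.

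The table lists 31232 genes. Counts per library ran from 18652837 to 20785031 in PSS and from 17445425 to 22965802 in Vortex, and 15774 genes passed the filter on low counts and were tested. A gene near 0 reads in 1 group could pass this filter through another group. Such a gene could then hardly be called lower in the group where it was near 0. Values are given as CPM, the reads of a gene scaled to a common library total, with totals adjusted by TMM, a method that evens out libraries of different composition. The PSS libraries correlated across genes at 0.977 to 0.992 (Pearson's r of log2 CPM), and the Vortex libraries at 0.962 for replicates 1 and 3, 0.852 for 1 and 2, and 0.916 for 2 and 3. Vortex replicate 2 also showed the steepest trend with base composition. Over genes split into 8 bins of GC content, its median log2 difference from the PSS mean went from -1.41 in the bin lowest in GC to 0.9 in the bin highest in GC, against -0.13 and 0.18 in Vortex replicate 1 and -0.45 and 0.27 in Vortex replicate 3. It held 46858 reads of the imprinted RNA H19, of which no other library held more than 50. Most genes below are therefore given by the value of each Vortex library, and some by a fold change or a range alone. Genes on which all 3 Vortex libraries lie on the same side of the PSS libraries are described first.

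With all 9 libraries in the fit, 2107 genes differed between Vortex and PSS, 13.4% of those tested, by edgeR's quasi-likelihood test at a Benjamini-Hochberg adjusted p under 0.05. Genes past this threshold are said below to have risen or fallen. There were 1314 rises (8.33%) and 793 falls (5.03%). With library totals in place of TMM the split was 835 rises and 1165 falls, as the median log2 fold change of all tested genes moved from 0.11 to -0.06. All 3 Vortex libraries lay above the 3 PSS libraries in 2454 genes (15.6%) and below them in 2274 (14.4%), and in 7275 genes (46.1%) they lay on 1 side of the PSS mean. Of the 2107 genes, 2039 had groups that did not overlap. When the spread was estimated from the 6 compared libraries alone, 74 of 15149 genes (0.488%) passed, 40 higher (0.264%) and 34 lower (0.224%). An unadjusted p under 0.05 was reached by 3102 genes in that fit. Without Vortex replicate 2, 5888 of 16233 genes (36.3%) passed, 3190 higher (19.7%) and 2698 lower (16.6%), and 2104 of the 2107 genes were among them. Leaving out 1 PSS library at a time gave 519 genes without PSS replicate 1, 910 without PSS replicate 2 and 1074 without PSS replicate 3, and leaving out 1 HSS library gave 1112 to 1116. Where a gene named below passed in fewer than all 9 of these fits that leave out 1 library, the number is given with the largest adjusted p. Removal of a smooth trend with GC content from every library left 1485 genes (9.41%), 950 higher (6.02%) and 535 lower (3.39%).

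The rises that were large in every Vortex library included a water channel, metal and alcohol handling proteins and inflammatory messengers. Aqp8 (ENSMUSG00000030762), a channel for water and hydrogen peroxide, was at 2.53, 3.21 and 4.41 CPM in PSS replicates 1 to 3 and at 49.2, 46.7 and 49.1 CPM in Vortex replicates 1 to 3. The Vortex libraries were nearly equal and far above each PSS library, a log2 fold change of 3.83 ± 0.25 (SE, adjusted p = 0.000945). Cebpd (ENSMUSG00000071637), a transcription factor induced in inflammation, was at 3.99, 3.55 and 3.36 CPM in PSS and 52.5, 33.3 and 68.8 CPM in Vortex, with a log2 fold change of 3.82 ± 0.29 (adjusted p = 0.0014). Its Vortex libraries were likewise all far above PSS. Slc39a4 (ENSMUSG00000063354), a zinc importer, was near 1 CPM in PSS, at 0.808, 0.73 and 0.995 CPM, and at 9.21, 9.81 and 20.2 CPM in Vortex (log2 fold change 3.94 ± 0.37, adjusted p = 0.00218). Adh7, an alcohol dehydrogenase that oxidises retinol, was at 2.53, 2.19 and 3.6 CPM in PSS and 18.7, 32.8 and 20.1 CPM in Vortex (3.10 ± 0.31), and here Vortex replicate 2 was the highest. In the fit of 6 libraries the adjusted p was 0.0407 for Aqp8 and Cebpd and 0.0426 for Slc39a4 and Adh7.

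Other rises of this kind were of unequal size among the Vortex libraries. Ccl20 (ENSMUSG00000026166), a chemokine that draws lymphocytes and dendritic cells, was at 0.556, 0.535 and 0.568 CPM in PSS and 54.6, 7.86 and 63.1 CPM in Vortex (log2 fold change 6.22 ± 0.75, adjusted p = 0.00319). Vortex replicate 2 was well below the other Vortex libraries and still above all PSS libraries. The same order was seen for Csf3, the granulocyte growth factor, at 2.27, 2.72 and 0.805 CPM in PSS and 52.2, 16.3 and 53.4 CPM in Vortex (4.39 ± 0.57, adjusted p = 0.0039). It was also seen for Aldh3a1, an aldehyde dehydrogenase, at 0.606, 0.535 and 0.568 CPM in PSS and 32.9, 5.0 and 31.9 CPM in Vortex (5.34 ± 0.68). Nos2, the inducible nitric oxide synthase, varied most: it was at 0, 0.146 and 0.189 CPM in PSS and at 154, 1.38 and 183 CPM in Vortex (9.88 ± 1.73, adjusted p = 0.009). Its call was lost without PSS replicate 1 (adjusted p = 0.0514) and held in the other 8 fits. Il1a, the cytokine interleukin 1 alpha, was at 0.0505, 0.146 and 0.0947 CPM in PSS and 8.96, 1.29 and 5.63 CPM in Vortex (5.67 ± 0.79). Ramp3, a partner of the adrenomedullin receptor, was at 1.41, 1.56 and 1.85 CPM in PSS and 46.5, 14.8 and 11.2 CPM in Vortex (3.90 ± 0.55), where Vortex replicate 1 stood highest. Sprr2b, a cornified envelope protein, was instead highest in Vortex replicate 2, at 7.44, 89.5 and 33.5 CPM against 0.808, 0.876 and 0.90 CPM in PSS (5.65 ± 0.82). Prl2c2, a prolactin-like hormone, was at 24.3, 3.05 and 11 CPM against 0.202, 0.438 and 0.0947 CPM in PSS (5.67 ± 0.83). Both belong to families of near-identical copies, so their reads may be split among relatives.

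**Figure D1:**
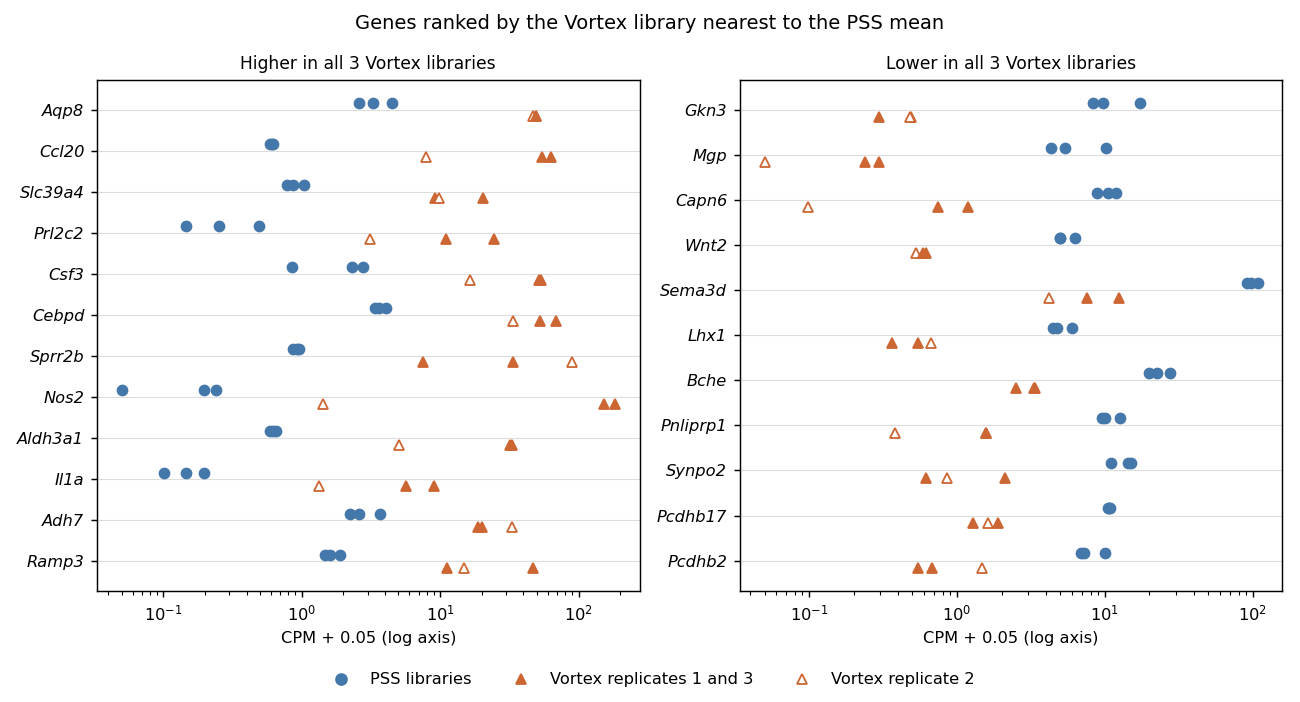
CPM + 0.05 on a log axis of the 12 rises and 11 of the 12 falls whose Vortex library nearest to the PSS mean still differs most from it, 1 point per library for PSS and Vortex. In each gene all 3 Vortex points lie on 1 side of all 3 PSS points, while their spread runs from 46.7 to 49.2 CPM for Aqp8 to 1.38 to 183 CPM for Nos2.

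The falls shared by all Vortex libraries were led by secreted and developmental proteins. Gkn3 (ENSMUSG00000030048), a gastrokine that marks arterial endothelium in the mouse brain, was at 9.6, 8.22 and 17.2 CPM in PSS and 0.441, 0.429 and 0.247 CPM in Vortex, a log2 fold change of -4.96 ± 0.43 (adjusted p = 0.00184, and 0.0407 with 6 libraries). Mgp, the matrix Gla protein that inhibits calcification and BMP signals, was at 5.36, 4.28 and 10.2 CPM in PSS and 0.189, 0 and 0.247 CPM in Vortex (-5.48 ± 0.82, adjusted p = 0.00538). For both genes every Vortex library lay below 1 CPM. Sema3d (ENSMUSG00000040254), a secreted guidance cue for endothelial and neural cells, was at 97.4, 91.1 and 108 CPM in PSS and 12.4, 4.15 and 7.5 CPM in Vortex (-3.63 ± 0.36, adjusted p = 0.0022). Bche, butyrylcholinesterase, was at 22.4, 19.8 and 27.5 CPM in PSS and 2.46, 3.34 and 3.26 CPM in Vortex (-2.94 ± 0.24, adjusted p = 0.00171). Here the 3 Vortex libraries lay close together, as they did for Wnt2, a Wnt ligand, at 4.9, 6.23 and 4.93 CPM in PSS and 0.568, 0.476 and 0.543 CPM in Vortex (-3.33 ± 0.39). Lhx1, a homeobox factor, was at 4.7, 5.94 and 4.41 CPM in PSS and 0.315, 0.619 and 0.494 CPM in Vortex (-3.36 ± 0.36). Synpo2, an actin-binding protein of muscle cells, was at 14.2, 14.8 and 10.9 CPM in PSS and 0.568, 0.81 and 2.07 CPM in Vortex (-3.51 ± 0.44).

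Capn6, a calpain that stabilises microtubules, was lowest in Vortex replicate 2, at 1.14, 0.0476 and 0.691 CPM in Vortex against 8.84, 10.4 and 11.9 CPM in PSS (log2 fold change -4.08 ± 0.70). Pnliprp1, a lipase-related protein, was at 1.51, 0.334 and 1.53 CPM against 9.95, 9.49 and 12.6 CPM (-3.25 ± 0.49). The protocadherins Pcdhb17 and Pcdhb2, members of a clustered adhesion family with similar sequences, were at 1.83, 1.57 and 1.23 and at 0.631, 1.43 and 0.494 CPM in Vortex, against 10.6, 10.8 and 10.4 and 7.17, 6.81 and 9.95 CPM in PSS (log2 fold changes -2.77 ± 0.29 and -3.21 ± 0.53). Of the 12 rises and 12 falls, 7 and 7 also passed with 6 libraries, where the adjusted p ran up to 0.0588 for the rises and 0.0614 for the falls. When each of the 9 libraries was left out in turn, 11 of the rises and all 12 falls passed every time, Nos2 being the exception. The genes were picked from these same libraries for their distance from PSS, so such passes are no independent support. Nos2, Il1a and Prl2c2 had 0 to 4, 1 to 3 and 2 to 9 reads in the PSS libraries. They passed the filter on low counts only through other groups, as Gkn3 and Mgp did only through PSS. The next genes by the same ranking were Kcnn4, a potassium channel, at 21.6, 9.43 and 15.7 CPM in Vortex against 1.26, 1.95 and 1.09 CPM in PSS, and Hmgn5, a nucleosome-binding protein.

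The 74 genes that passed with 6 libraries had log2 fold changes from 1.46 to 6.22 among the 40 rises and from -6.56 to -1.52 among the 34 falls. All 74 also passed with all 9 libraries, without Vortex replicate 2, without each other library in turn, and after removal of a smooth trend with GC content from every library. Those fits call more genes and share libraries with the fit that chose the 74, so they are not independent of it. Beside genes named above, those with the smallest adjusted p-values and at least 5 CPM in the higher group, to a total of 10, were Mbnl3, an RNA-splicing regulator, Hmgn5, the class I histocompatibility gene H2-D1, the secreted glycoprotein Lgals3bp and the sodium-proton exchanger Slc9a2. Mbnl3 was at 42.7, 48.2 and 41.6 CPM in PSS and 8.01, 8.19 and 8.98 CPM in Vortex (-2.39 ± 0.18, adjusted p = 0.0014). Hmgn5 was at 116, 96.8 and 166 CPM in PSS and 20.4, 24.1 and 19.2 CPM in Vortex (-2.57 ± 0.23). In both genes every Vortex library was far below every PSS library. Lgals3bp was at 52.5, 53.9 and 47.9 CPM in PSS and 222, 376 and 261 CPM in Vortex (2.48 ± 0.22), and Slc9a2 at 5.41, 5.6 and 4.07 and 36.8, 24.8 and 30.4 CPM (2.61 ± 0.24). The former was highest and the latter lowest in Vortex replicate 2, among the Vortex libraries.

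Several of the 74 are abundant genes with small spread. Dhx9, an RNA helicase whose adjusted p with 6 libraries (0.0426) equals that of Hmgn5, was at 644, 632 and 608 CPM in PSS and 187, 158 and 191 CPM in Vortex (log2 fold change -1.81 ± 0.15, adjusted p = 0.00174). Hnrnpm, a splicing factor, was at 427, 452 and 410.1 CPM in PSS and 129.99, 157 and 162 CPM in Vortex (-1.52 ± 0.16). For both, each Vortex library held less than each PSS library by a wide margin. App, the amyloid precursor protein, was at 176, 186 and 150.1 CPM in PSS and 452, 611 and 511 CPM in Vortex (1.62 ± 0.17). Grn, the lysosomal growth factor progranulin, was at 159, 188 and 138 CPM in PSS and 556, 789 and 442 CPM in Vortex (1.88 ± 0.23), and the membrane protein stomatin, Stom, at 75.9, 76.5 and 77.5 and 381, 238 and 307 CPM (2.01 ± 0.20). Receptor chains for gamma interferon, and for alpha and beta interferons, were among the rises. Ifngr2 was at 33.5, 33.4 and 29.5 CPM in PSS and 88, 108 and 112 CPM in Vortex (1.67 ± 0.17), and Ifnar2 at 5.61, 5.4 and 6.39 and 20.5, 18.5 and 25.4 CPM (1.89 ± 0.21). Slco2a1, which carries prostaglandins across brain endothelium, was at 19, 16.4 and 11.9 CPM in PSS and 74.8, 52.7 and 84 CPM in Vortex (2.16 ± 0.25). Among the falls, the clotting cofactor F8 was at 3.08, 3.65 and 4.36 CPM in PSS and 0.568, 0.572 and 0.494 CPM in Vortex (-2.75 ± 0.34). Dpt, a dermal matrix protein of fibroblasts, had 227 reads in the PSS libraries and 2 in the Vortex libraries, a scaled ratio of PSS to Vortex of 105 (exact 95% interval 28.9 to 876, counting error only).

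**Figure D2:**
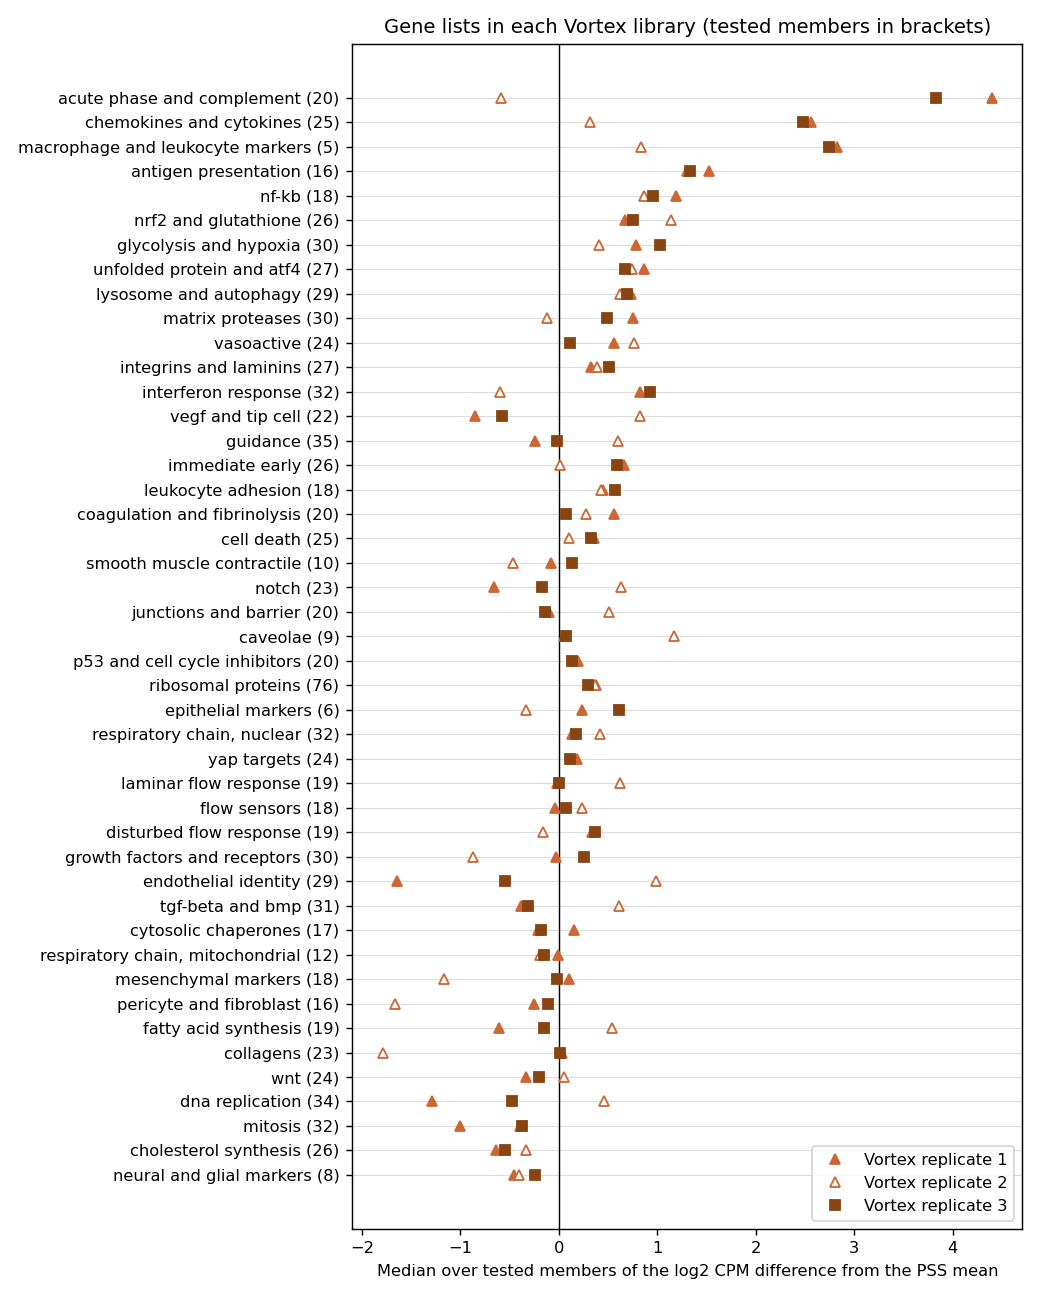
Median log2 difference from the PSS mean over the tested members of each gene list, 1 point per Vortex library. Lysosomal, antigen presentation and NRF2 lists lie above 0 in all 3 Vortex libraries, while the endothelial identity list is at -1.64, 0.99 and -0.55 in Vortex replicates 1, 2 and 3.

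Gene groups are described next, each by the number of its tested members that rose or fell. Groups on which the Vortex libraries agreed come first, and the background for each count is the share of all tested genes given above. In the fit of 6 libraries no more than 3 members of any list passed. Of the fits that leave out 1 library, the one without PSS replicate 1 gave the fewest calls, or as few as any, in each list described. Promoter sequences are shown for some members that passed and carry the recognition letters of the factor after which their group is named. They were taken from RefSeq on the mouse build GRCm38.p6, within the 250 bases before an annotated start and 5′ to 3′ on the strand of the gene, and matches were counted on both strands. A match is a description of the letters and no measure of binding. Members that carry the letters did not all pass: Rel, Nfkbia, Cyld, Cxcl10, Nupr1 and Atp6v1a are among those that did not. Some carriers that passed are not shown either. In Chac1 (chr2:119351024-119351081, plus strand), Asns (chr6:7693210-7693257, minus strand) and Slc7a11 (chr3:50443647-50443704, minus strand) the capitals mark TGATGNAA or its reverse complement, the core read by ATF4 with its C/EBP partners. Slc7a11 holds a further match on the opposite strand in the same window.
Chac1: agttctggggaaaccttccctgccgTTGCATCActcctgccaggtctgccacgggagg
Asns: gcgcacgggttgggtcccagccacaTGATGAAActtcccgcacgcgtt
Slc7a11: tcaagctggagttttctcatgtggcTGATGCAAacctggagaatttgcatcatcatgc
In Ctsd (chr7:142387894-142387951, minus strand) and Mcoln1 (chr8:3500448-3500505, plus strand) they mark TCACGTGA, the palindromic core of the element read by TFEB, a regulator of lysosomal genes.
Ctsd: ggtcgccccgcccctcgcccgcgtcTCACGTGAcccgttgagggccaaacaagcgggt
Mcoln1: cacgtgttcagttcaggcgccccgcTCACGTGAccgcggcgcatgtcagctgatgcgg
In Tnip1 (chr11:54962963-54963022, minus strand) and Cxcl1 (chr5:90891149-90891208, plus strand) they mark a kappaB site, the binding site of NF-kappaB, searched as GGGA, any 2 bases, T, any base and CC. Each of these windows matches on both strands, in Cxcl1 with the second match shifted by 1 base.
Tnip1: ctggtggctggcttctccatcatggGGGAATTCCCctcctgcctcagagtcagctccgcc
Cxcl1: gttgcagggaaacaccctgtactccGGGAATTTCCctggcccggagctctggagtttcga
In Hmgcs1 (chr13:119690189-119690247, plus strand) they mark TCACNCCAC, the element read by SREBP, the sterol-sensing factor.
Hmgcs1: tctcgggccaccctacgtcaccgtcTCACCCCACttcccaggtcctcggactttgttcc

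Antigen presentation showed a high share of rises with good agreement of the libraries. Of its 16 tested members 9 rose and none fell, and 11 had all Vortex libraries above all PSS libraries (15.6% of all tested genes). The group's median difference from PSS was 1.53, 1.31 and 1.33 in Vortex replicates 1, 2 and 3. Leaving out any 1 library other than Vortex replicate 2 left 7 to 10 rises, and 12 rose without that replicate. H2-D1, the heavy chain that displays peptides to cytotoxic T cells, was at 89.3, 95.3 and 84.4 CPM in PSS and 472, 669.5 and 394 CPM in Vortex (log2 fold change 2.51 ± 0.22, adjusted p = 0.00184, and 0.0426 with 6 libraries). Its relative H2-K1 was at 24.5, 23 and 24 CPM in PSS and 193, 66.8 and 141 CPM in Vortex (2.49 ± 0.34, adjusted p = 0.00443). Vortex replicate 2 was the highest for H2-D1 and the lowest of the Vortex libraries for H2-K1, and reads may be shared between these similar genes. Tap1, a chain of the peptide transporter, was at 19.1, 18.4 and 16.3 CPM in PSS and 53.8, 44.7 and 46 CPM in Vortex (1.42 ± 0.17, adjusted p = 0.00314). H2-T23, a nonclassical class I gene, rose as well (1.89 ± 0.33, adjusted p = 0.00826).

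Regulators of NF-kappaB rose in 8 of 18 tested members and fell in none. The medians were 1.19, 0.87 and 0.96 in Vortex replicates 1 to 3, and 3 to 9 members rose when 1 library other than Vortex replicate 2 was left out, against 14 without that replicate. Bcl3, a nuclear partner of NF-kappaB subunits, was at 14, 16 and 11.9 CPM in PSS and 52.7, 41 and 67.3 CPM in Vortex (log2 fold change 1.94 ± 0.23, adjusted p = 0.00283). Tnip1, whose promoter is shown above and which restrains the pathway, was at 55.5, 52 and 40.7 CPM in PSS and 110.1, 149 and 174 CPM in Vortex (1.54 ± 0.21, adjusted p = 0.00447). Neither gene had overlapping groups. Ikbke, a kinase of the pathway, was at 133, 58.2 and 184 CPM against 22.1, 24.3 and 17.5 CPM in PSS (2.55 ± 0.37). The kappaB motif occurred before a start of 5 of the 13 members that have a promoter entry (38.5%), 6 of 18 chemokine and cytokine genes (33.3%) and 4.36% of 10947 tested genes with an entry.

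In the group of the unfolded protein and ATF4 responses, which answer protein folding stress and amino acid shortage, 10 of 27 tested members rose and none fell. Medians were 0.87, 0.74 and 0.67 in Vortex replicates 1 to 3, and 4 to 11 members rose when 1 library other than Vortex replicate 2 was left out, against 18 without that replicate. The smallest p-values belonged to Slc3a2, Atf5 and Trib3. Slc3a2, the shared chain of amino acid transporters, was at 204, 227 and 169 CPM in PSS and 501, 560.3 and 484 CPM in Vortex (log2 fold change 1.36 ± 0.17, adjusted p = 0.00319). Trib3, a pseudokinase that feeds back on ATF4, was at 9.9, 9.68 and 9.33 CPM in PSS and 109, 40.1 and 67.8 CPM in Vortex (2.90 ± 0.33, and adjusted p = 0.0492 with 6 libraries), with Vortex replicate 1 the highest. Atf5, a related transcription factor, was at 8.54, 9.78 and 7.58 CPM in PSS and 55.1, 24 and 38.2 CPM in Vortex (2.18 ± 0.30). Chac1, which degrades glutathione, was at 3.74, 4.14 and 3.51 CPM in PSS and 83.3, 17.9 and 24.7 CPM in Vortex (3.46 ± 0.54). Asns, asparagine synthetase, was at 186, 164 and 231 CPM in PSS and 871, 418 and 482 CPM in Vortex (1.61 ± 0.28), with calls in 8 of the 9 fits (adjusted p = 0.052 without PSS replicate 1). Slc7a11, the cystine importer, was at 66.5, 78.5 and 31.1 CPM in PSS and 505, 139 and 526 CPM in Vortex (2.73 ± 0.51), again with 8 of 9 (adjusted p = 0.0539 without PSS replicate 1). Atf4 itself was at 269 to 292 CPM in PSS and 493 to 517 CPM in Vortex (0.83 ± 0.14, adjusted p = 0.00733, but 0.0933 after removal of the GC trend and 0.0502 without PSS replicate 1, with 8 of 9 passing). The folding chaperone Hspa5 did not pass: its Vortex values of 5309, 900.2 and 2007 CPM lay on both sides of the PSS values of 1579, 1596 and 1839 CPM (0.71 ± 0.50, adjusted p = 0.378). The TGATGNAA core occurred before a start of 5 of 26 members with an entry (19.2%) and of 2.48% of all tested genes with one.

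Targets of NRF2, the factor that answers oxidants, and genes of glutathione metabolism rose in 11 of 26 tested members and fell in none, with medians of 0.68, 1.14 and 0.76. Without PSS replicate 1 the count was 6, and without Vortex replicate 2 it was 16. Gstm1, a glutathione transferase, was at 24.9, 28.7 and 28.5 CPM in PSS and 92.6, 74.1 and 92.9 CPM in Vortex (log2 fold change 1.66 ± 0.17, adjusted p = 0.0022). Nqo1, a quinone reductase, was at 31.6, 33 and 32.5 CPM in PSS and 127, 303 and 97.6 CPM in Vortex (2.44 ± 0.39), where Vortex replicate 2 stood highest. Fth1, the ferritin heavy chain that stores iron, was at 1376, 1255 and 1667 CPM in PSS and 5342, 3055 and 4893 CPM in Vortex (1.63 ± 0.22). Hmox1, the inducible haem oxygenase, did not pass (0.22 ± 0.25, adjusted p = 0.604). The antioxidant core TGACNNNGC was found in 6 of 20 members with an entry (30%), against 13.9% of all. Lysosomal and autophagy genes rose in 14 of 29 tested members and fell in none, with medians of 0.73, 0.62 and 0.69. The count was 7 after removal of the GC trend, 9 with library totals in place of TMM 3 without PSS replicate 1 and 19 without Vortex replicate 2. Hexa, a ganglioside-degrading enzyme, was at 189, 198 and 161 CPM in PSS and 361, 413 and 439 CPM in Vortex (1.15 ± 0.16, adjusted p = 0.00458). Ctsd, an aspartic protease, was at 181, 159 and 170.05 CPM in PSS and 271, 395 and 352 CPM in Vortex (1.00 ± 0.18), and Mcoln1, a calcium channel of the lysosome, at 34.3, 38.1 and 26.1 and 58.1, 69.7 and 48.2 CPM (0.84 ± 0.21). Ctsl, a cysteine protease, was at 2119, 662 and 1373 CPM against 377, 359.5 and 442 CPM in PSS (1.82 ± 0.35). Ctsd passed in 8, Ctsl in 7 and Mcoln1 in 3 of the 9 fits, with adjusted p-values of 0.0514, 0.0637 and 0.112 without PSS replicate 1. The TCACGTGA core occurred in 4 of 23 members with an entry (17.4%) and in 1.72% of all.

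Glycolysis and hypoxia genes rose in 13 of 30 tested members and fell in none, and medians were 0.78, 0.41 and 1.03. The count was 8 after removal of the GC trend, 3 without PSS replicate 1 and 22 without Vortex replicate 2. Gpi1, a glycolytic isomerase, was at 301, 302 and 291 CPM in PSS and 553, 626 and 567 CPM in Vortex (log2 fold change 0.97 ± 0.14, adjusted p = 0.00504). Slc2a1, the glucose transporter of the blood-brain barrier, was at 83.4, 87 and 68 CPM in PSS and 532, 143 and 329 CPM in Vortex (2.07 ± 0.40), and passed in 7 of the 9 fits (adjusted p = 0.0592 without PSS replicate 1). Ndrg1, a hypoxia-induced protein, was at 18.5, 17.8 and 15.6 CPM in PSS and 177, 41.9 and 111 CPM in Vortex (2.67 ± 0.44), with Vortex replicate 2 the lowest of the Vortex libraries for both. Ribosomal protein genes gave no call among 76, and 58 of them had all 3 Vortex libraries above the PSS mean (24.5% of all tested genes did), with medians of 0.37, 0.37 and 0.29. In 5 of the 76 all Vortex libraries lay above all PSS libraries (15.6% of all tested genes). Their summed level was 31439, 27038 and 48240 CPM in PSS and 43935, 43204 and 42061 CPM in Vortex. PSS replicate 3 was thus above every Vortex library. With library totals in place of TMM the median of their fitted log2 fold changes moved from 0.27 to 0.11.

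Cholesterol synthesis and mitosis were the groups with falls and no rises in several members. Of 26 tested sterol genes 6 fell and none rose, 13 had all Vortex libraries below all PSS libraries (14.4% of all tested genes), and the medians were -0.64, -0.33 and -0.55. The falls numbered 11 with library totals in place of TMM, 2 without PSS replicate 1 and 18 without Vortex replicate 2. Idi1, an isomerase early in the pathway, was at 51.8, 49.1 and 69.3 CPM in PSS and 10.5, 12.1 and 15.3 CPM in Vortex (log2 fold change -2.17 ± 0.22, adjusted p = 0.0022, and 0.0492 with 6 libraries). Hmgcs1, the synthase at its entry, was at 109, 108 and 124 CPM in PSS and 49.5, 32.7 and 54.3 CPM in Vortex (-1.32 ± 0.21, adjusted p = 0.00662). Both groups of libraries were clearly apart in these genes. The TCACNCCAC element was found in 1 of 18 members with an entry (5.56%) and in 1.24% of all.

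Mitotic genes fell in 11 of 32 tested members and rose in none, with medians of -1.0, -0.39 and -0.38, and 6 fell after removal of the GC trend. Without PSS replicate 1 the count was 4, and without Vortex replicate 2 it was 21. Mki67, the proliferation antigen, was at 506, 490.5 and 477 CPM in PSS and 163, 70.7 and 173 CPM in Vortex (log2 fold change -1.86 ± 0.30, adjusted p = 0.00703). Kif11, a spindle motor, was at 220.1, 211 and 267 CPM in PSS and 51.3, 55 and 106 CPM in Vortex (-1.71 ± 0.28), and Cenpe, a kinetochore motor, at 134, 123 and 171 and 48.6, 16.5 and 47.4 CPM (-1.93 ± 0.37). Mki67 and Cenpe were lowest in Vortex replicate 2. Aurka, a mitotic kinase, did not follow: it was at 80.6, 212 and 118 CPM in Vortex against 104, 101 and 129 CPM in PSS (0.30 ± 0.31, adjusted p = 0.567), and here Vortex replicate 2 was the highest. Among DNA replication genes 3 of 34 fell and none rose, with 24 falls without Vortex replicate 2, none without PSS replicate 1 and 1 after removal of the GC trend. Their medians were -1.29, 0.46 and -0.48. Mcm5, a helicase subunit, shows the split, at 218, 232 and 205 CPM in PSS and 49.2, 409 and 140.2 CPM in Vortex (-0.13 ± 0.58, adjusted p = 0.905).

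**Figure D3:**
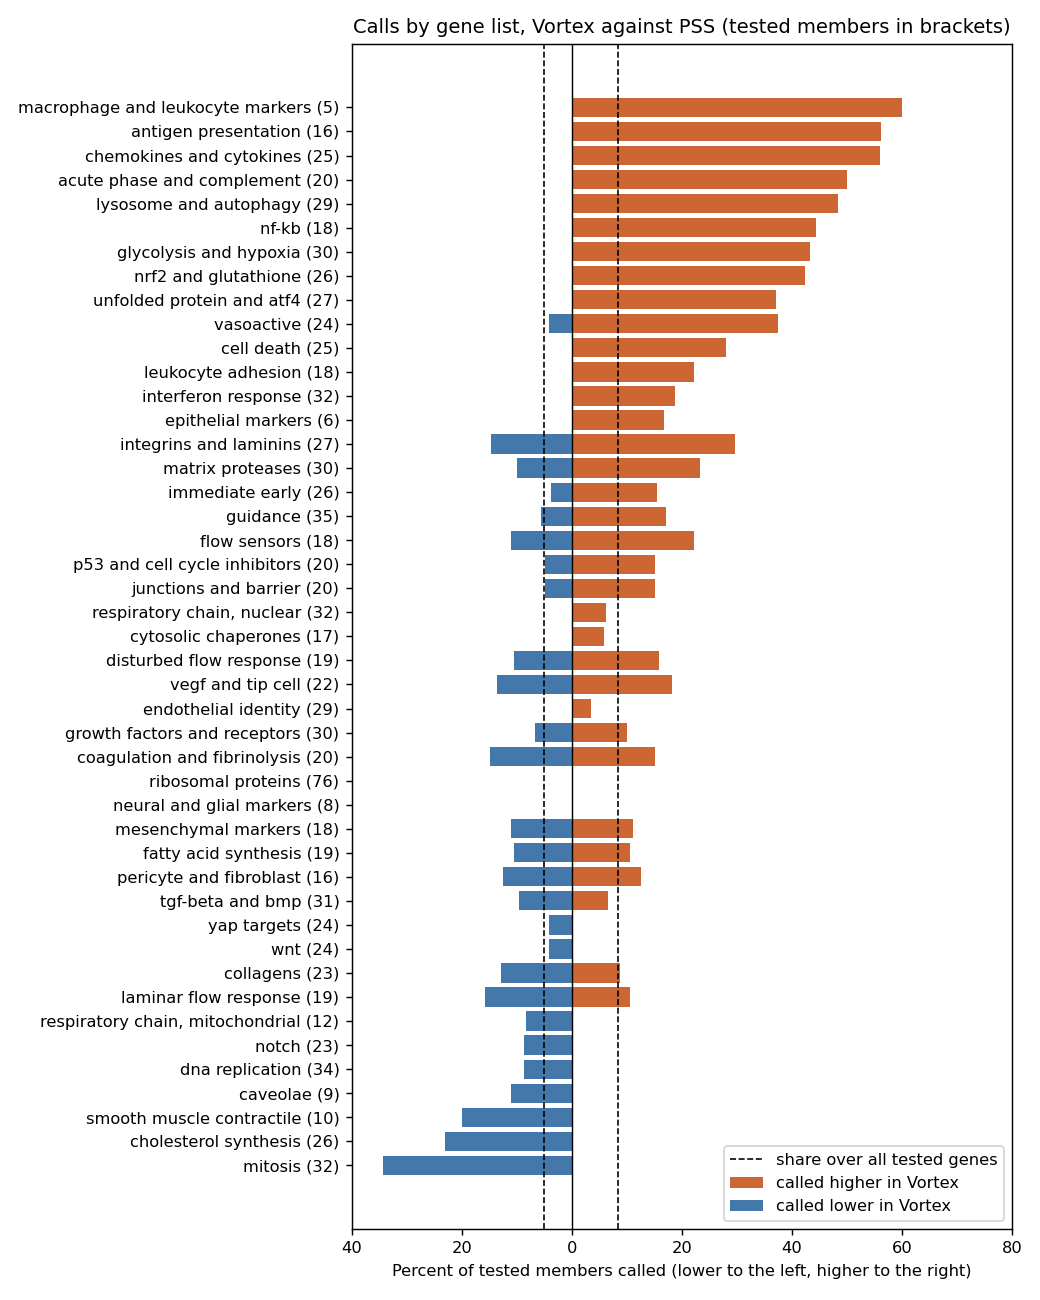
Percent of tested members of each gene list that passed at an adjusted p under 0.05 with all 9 libraries. Bars to the right are members higher in Vortex, and bars to the left lower. Dashed lines mark the shares of all tested genes, 8.33% higher and 5.03% lower. Of antigen presentation 56.2% is higher, and of endothelial identity 3.45%, with none lower in either list.

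Inflammatory messengers rose in number, and their size depended on the library. Of 25 tested chemokine and cytokine genes 14 rose and none fell, and the medians were 2.56, 0.32 and 2.48 in Vortex replicates 1, 2 and 3. Some members had few reads in PSS, such as Cxcl3 with 1 read in the PSS libraries and 52 in the Vortex libraries. These could hardly be called lower, so the filter on low counts favours rises in this count. Between 6 and 12 rose when 1 library other than Vortex replicate 2 was left out, the fewest without PSS replicate 1, and 20 without Vortex replicate 2. Ccl2, which recruits monocytes, was at 16.3, 19 and 12.6 CPM in PSS and 401, 96.7 and 207 CPM in Vortex (log2 fold change 3.88 ± 0.47, adjusted p = 0.00319, and 0.0492 with 6 libraries). Cxcl1, which recruits neutrophils, was at 124, 116 and 118 CPM in PSS and 2103, 288 and 1846 CPM in Vortex (3.57 ± 0.60, adjusted p = 0.00775). All Vortex libraries lay above PSS for both, with Vortex replicate 2 the lowest. Il6 also passed (2.48 ± 0.68, adjusted p = 0.0428), but Vortex replicate 2, at 5.15 CPM, lay below the PSS range of 5.21 to 6.76 CPM, and it passed in 1 of the 9 fits (adjusted p = 0.147 without PSS replicate 3). Adhesion molecules that capture leukocytes rose in 4 of 18 tested members and fell in none, 1 rose without PSS replicate 1, and 9 rose and 4 fell without Vortex replicate 2. Selp, P-selectin, was at 0.354, 0.389 and 0.284 CPM in PSS and 2.46, 2.53 and 3.41 CPM in Vortex (3.01 ± 0.38, adjusted p = 0.0034). It had 7, 8 and 6 reads in PSS and 6, 7 and 5 in HSS, and passed the filter on low counts only through Vortex. Selp could therefore hardly have been called lower. Sele, E-selectin, was at 37.5, 41.9 and 38.8 CPM in PSS and 96.6, 134 and 477 CPM in Vortex (2.58 ± 0.53, adjusted p = 0.0148), highest in Vortex replicate 3, and passed in 6 of the 9 fits (adjusted p = 0.0757 without PSS replicate 1). Madcam1, an address molecule of gut venules, was at 3.84, 4.43 and 3.13 CPM in PSS and 16.5, 8.48 and 32.6 CPM in Vortex (2.34 ± 0.45), with 7 of 9 (adjusted p = 0.0627 without PSS replicate 1). Icam1 and Vcam1 did not pass, at 56, 157 and 84.5 and 462, 75.6 and 409.8 CPM in Vortex against 60.8, 70 and 39.9 and 99.7, 92.4 and 129 CPM in PSS (adjusted p = 0.173 and 0.0807). Vcam1 was below PSS in Vortex replicate 2 and far above it in the other Vortex libraries, and without that replicate its log2 fold change was 2.03 ± 0.15 (adjusted p = 1.25e-05).

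The medians of the acute phase and complement list and of the interferon-response list lay above 0 in Vortex replicates 1 and 3 and below 0 in Vortex replicate 2. Of 20 tested acute phase and complement genes 10 rose and none fell, but in 4 alone were all Vortex libraries above all PSS libraries (15.6% of all tested genes), none passed without PSS replicate 1, and 18 passed without Vortex replicate 2. Members such as Nos2, with 0, 3 and 4 reads in PSS, passed the filter on low counts only through other groups. They could hardly be called lower, so the filter favours rises in this count. Medians were 4.40, -0.58 and 3.83. Saa3, a serum amyloid protein with close relatives, was at 3.84, 3.84 and 4.64 CPM in PSS and 2120.3, 2.76 and 1063 CPM in Vortex (log2 fold change 8.01 ± 1.72, adjusted p = 0.0176). Lcn2, an iron-binding lipocalin, was at 19.3, 18.6 and 24.7 CPM in PSS and 2799, 13.5 and 2124 CPM in Vortex (6.30 ± 1.40, adjusted p = 0.0202). C3, the central complement protein, did not pass, at 134, 151 and 114 CPM in PSS and 2680.2, 35 and 2337 CPM in Vortex (adjusted p = 0.0545). All 3 were below the PSS range in Vortex replicate 2. Saa3 and Lcn2 each passed in 6 of the 9 fits, with adjusted p-values of 0.0874 and 0.0955 without PSS replicate 1. Interferon-response genes rose in 6 of 32 tested members and fell in none, none rose without PSS replicate 1 and 22 rose without Vortex replicate 2, and 3 rose after removal of the GC trend. Medians were 0.82, -0.60 and 0.93, though in 8 members all Vortex libraries lay above all PSS libraries (15.6% of all tested genes). Dhx58, a regulator of viral RNA sensing, was among these, at 11.7, 11.5 and 14.4 CPM in PSS and 29.1, 21.2 and 44.4 CPM in Vortex (1.33 ± 0.27, adjusted p = 0.0139, and 0.0773 without PSS replicate 1, with 7 of 9 passing). So was Bst2, which tethers budding virus, at 101, 84.2 and 137 CPM in PSS and 232, 184 and 255 CPM in Vortex (1.06 ± 0.22, adjusted p = 0.0148, and 0.0817 without PSS replicate 1, with 6 of 9 passing). After removal of the GC trend the adjusted p was 0.0661 for Dhx58 and 0.137 for Bst2. Irf7, a transcription factor of the response, followed the medians and did not pass, and was at 12.7, 12.6 and 16.3 CPM in PSS and 123, 8.58 and 99.4 CPM in Vortex (2.47 ± 0.72, adjusted p = 0.0535).

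Markers of the endothelial cell itself split the Vortex libraries. Of 29 tested identity genes 1 rose and none fell with all libraries, and 1 rose and 21 fell without Vortex replicate 2. Their medians were -1.64, 0.99 and -0.55, and their summed level was 4722 to 5789 CPM in PSS and 2322, 12642 and 3783 CPM in Vortex replicates 1, 2 and 3. In bulk RNA, fewer cells of a kind and less RNA per cell cannot be told apart. The single rise was Flt1, a VEGF receptor, at 255, 258 and 178 CPM in PSS and 485, 447 and 459 CPM in Vortex (log2 fold change 1.01 ± 0.18, adjusted p = 0.00921), where the Vortex libraries agreed. Pecam1, a junctional adhesion molecule, was at 13.9, 12.4 and 14.2 CPM in PSS and 1.77, 1456 and 55.1 CPM in Vortex, that is, 28, 30567 and 1116 reads in the Vortex libraries (5.22 ± 1.71, adjusted p = 0.074). Cdh5, the cadherin of endothelial junctions, was at 551, 577 and 449.6 CPM in PSS and 329, 1298 and 381 CPM in Vortex (0.35 ± 0.46, adjusted p = 0.658). Vortex replicate 2 was above, and the other Vortex libraries below, all PSS libraries. Cldn5, the claudin that seals the blood-brain barrier, was at 58.7, 58.5 and 52.6 CPM in PSS and 0.82, 371 and 3.06 CPM in Vortex (1.14 ± 1.52, adjusted p = 0.664). The log2 fold change without Vortex replicate 2 was -4.81 ± 0.43 for Cldn5 (adjusted p = 3.78e-05) and -0.57 ± 0.14 for Cdh5 (adjusted p = 0.0119).

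The same division ran through Kdr, Vwf and Erg. Kdr, the main VEGF receptor, was at 443, 471 and 399 CPM in PSS and 94.3, 744 and 109 CPM in Vortex (log2 fold change -0.47 ± 0.67, adjusted p = 0.685). Without Vortex replicate 2 it was -2.11 ± 0.14 (adjusted p = 5.32e-06). Vwf, von Willebrand factor, was at 755, 855 and 611 CPM in PSS and 64.8, 903 and 180.4 CPM in Vortex (-0.95 ± 0.74, adjusted p = 0.429; without Vortex replicate 2, -2.59 ± 0.37). Erg, a transcription factor that maintains the endothelial state, was at 64.2, 60.5 and 70.1 CPM in PSS and 1.26, 98.6 and 17.1 CPM in Vortex (-0.73 ± 1.01, adjusted p = 0.673). In all 3 genes Vortex replicate 2 was the highest library of its group. Cd34, another identity gene, did not follow the division in Vortex replicate 3. It was at 347, 333 and 378 CPM in PSS and 253, 968 and 632 CPM in Vortex (0.81 ± 0.38, adjusted p = 0.195). Without Vortex replicate 2 its log2 fold change was 0.33 ± 0.29 (adjusted p = 0.406). Of 22 tested genes of VEGF signalling and tip cells 4 rose and 3 fell, and 7 rose and 11 fell without Vortex replicate 2. Their medians were -0.85, 0.82 and -0.58 in Vortex replicates 1, 2 and 3. In 4 members all Vortex libraries lay above all PSS libraries and in 4 below them (15.6% and 14.4% of all tested genes). Genes without overlap included Pgf, Vegfb, Angpt1 and Nrp1. Pgf, placental growth factor, was at 34.7, 36.4 and 35.8 CPM in PSS and 272, 86.1 and 164 CPM in Vortex (2.29 ± 0.36, adjusted p = 0.00618). Vegfb was at 20.9, 20.3 and 17.2 CPM in PSS and 45.8, 35.7 and 55.7 CPM in Vortex (1.23 ± 0.21, adjusted p = 0.00749, but 0.0849 after removal of the GC trend). Angpt1, which quietens endothelium through Tie2, was at 59.2, 52.4 and 78.5 CPM in PSS and 16.1, 3.14 and 14.5 CPM in Vortex (-2.50 ± 0.50, adjusted p = 0.0135), and passed in 7 of the 9 fits (adjusted p = 0.0562 without PSS replicate 3). Nrp1, a co-receptor of VEGF, was at 224, 243 and 244 and 101, 126 and 87.4 CPM (-1.18 ± 0.18, adjusted p = 0.00527, but 0.316 after removal of the GC trend).

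Genes known to answer flow did not move as a block. Of 19 tested members of the laminar flow list 2 rose and 3 fell, and of 19 in the disturbed flow list 3 rose and 2 fell. Without Vortex replicate 2 the counts were 3 and 7, and 8 and 6, and without PSS replicate 1 they were 1 and 2, and 1 and 1. Klf2 was at 51.6, 59.7 and 40.6 CPM in PSS and 12.7, 125 and 17.4 CPM in Vortex (log2 fold change 0.03 ± 0.72, adjusted p = 0.982). Nos3 was at 65.9, 60.7 and 53.7 CPM in PSS and 24.2, 233 and 40.9 CPM in Vortex (0.73 ± 0.69, adjusted p = 0.527). Both were below PSS in Vortex replicates 1 and 3 and above it in Vortex replicate 2. Without that replicate their log2 fold changes were -1.75 ± 0.21 for Klf2 (adjusted p = 0.000204) and -0.88 ± 0.24 for Nos3 (adjusted p = 0.016). Klf4 was at 105, 118 and 51.9 CPM in PSS and 81.7, 98.9 and 49.3 CPM in Vortex, with overlapping groups (-0.26 ± 0.33, adjusted p = 0.652). Thbd, the anticoagulant thrombomodulin that Klf2 is known to raise, was above PSS in all Vortex libraries, at 578, 169.5 and 286 against 154, 158 and 117 CPM, but did not pass (1.27 ± 0.38, adjusted p = 0.0573). Edn1, the vasoconstrictor endothelin, followed the split, at 33.5, 28.4 and 25.9 CPM in PSS and 6.12, 71 and 7.21 CPM in Vortex (adjusted p = 0.972, and 3.27e-05 with a log2 fold change of -2.13 without Vortex replicate 2).

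**Figure D4:**
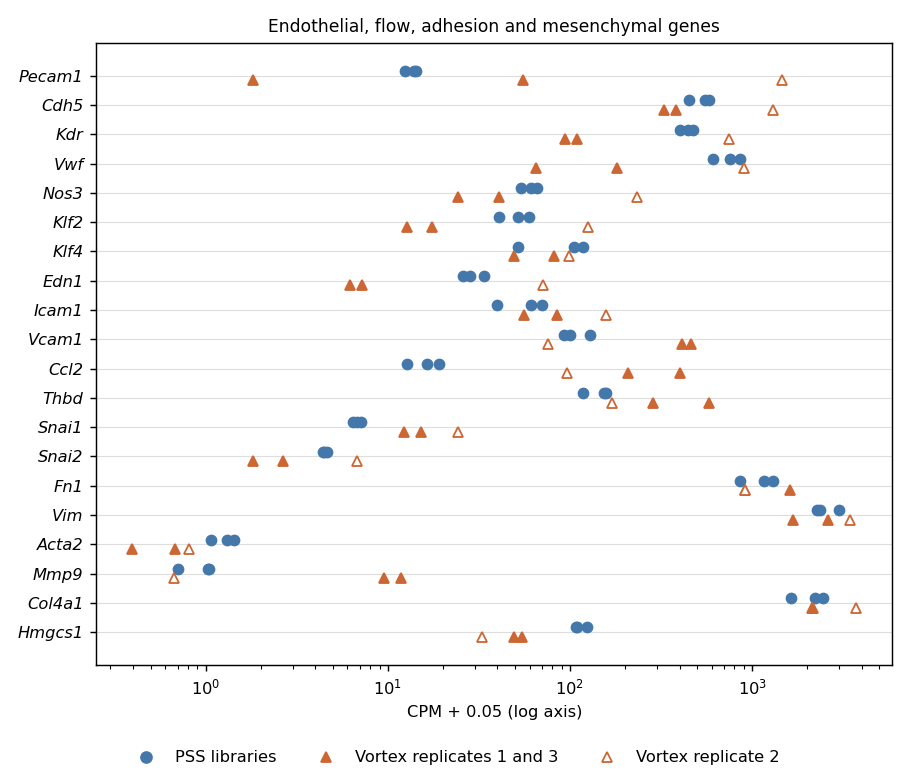
CPM + 0.05 on a log axis of 20 genes of flow, endothelial, adhesion, mesenchymal and matrix biology, 1 point per library for PSS and Vortex. Vortex replicate 2 stands apart from the other Vortex libraries in Pecam1, Klf2, Nos3 and Edn1, while Ccl2 and Hmgcs1 have all Vortex points on 1 side of PSS.

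In the laminar flow list 5 of the 19 tested members had all Vortex libraries above all PSS libraries and 3 had them below. In the disturbed flow list the counts were 3 and 3 of 19. Of all tested genes 15.6% lay above and 14.4% below, and a count of 3 is near these shares. Mef2c, a factor that acts upstream of Klf2, was at 65, 65.5 and 61.3 CPM in PSS and 20.7, 18.8 and 20.3 CPM in Vortex (log2 fold change -1.68 ± 0.17, adjusted p = 0.0022, and 0.0492 with 6 libraries). Timp3, an inhibitor of metalloproteinases, was at 144, 145 and 121 CPM in PSS and 39.8, 66.1 and 56.3 CPM in Vortex (-1.34 ± 0.21), and Nox4, an oxidase that makes hydrogen peroxide, at 6.97, 6.67 and 7.82 and 0.694, 1.62 and 1.53 CPM (-2.46 ± 0.35, adjusted p = 0.00479, but 0.107 after removal of the GC trend). All Vortex libraries were below PSS in these 3 genes. Among proteins that sense flow 4 of 18 rose and 2 fell, and the counts were 1 and 1 without PSS replicate 1 and 5 and 5 without Vortex replicate 2. Piezo2, a stretch-gated channel, was at 70.9, 78.5 and 48.7 CPM in PSS and 11.3, 32.9 and 20.5 CPM in Vortex (-1.61 ± 0.36, adjusted p = 0.021, and 0.0842 without PSS replicate 1, with 6 of 9 passing), while its relative Piezo1 did not pass (0.81 ± 0.43, adjusted p = 0.246). Gpc1, a heparan sulphate carrier of the glycocalyx, was at 15.7, 17.5 and 9.57 CPM in PSS and 52.4, 34.2 and 84.4 CPM in Vortex (2.00 ± 0.35, adjusted p = 0.00916). Sdc4, another such carrier, was at 46.7, 49.4 and 40.8 CPM in PSS and 441, 66.9 and 247 CPM in Vortex (2.46 ± 0.54, adjusted p = 0.0189, and 0.0851 without PSS replicate 3, with 6 of 9 passing). Genes of vessel tone rose in 9 of 24 tested members and 1 fell, 2 rose without PSS replicate 1, and 11 rose and 8 fell without Vortex replicate 2. Ace, the angiotensin-converting enzyme, was at 15.4, 14 and 11.9 CPM in PSS and 35.1, 65.5 and 54.4 CPM in Vortex (1.91 ± 0.26, adjusted p = 0.00444). Ptgs2, the inducible prostaglandin synthase, was at 10.2, 11.5 and 6.82 CPM in PSS and 26, 27 and 144 CPM in Vortex (2.79 ± 0.64), with Vortex replicate 3 the highest and 6 of the 9 fits passing (adjusted p = 0.102 without PSS replicate 3).

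Mesenchymal and contractile genes did not rise together. Of 18 tested mesenchymal markers 2 rose and 2 fell, and of 10 contractile genes of smooth muscle none rose and 2 fell. Without Vortex replicate 2, 6 mesenchymal markers rose and 3 fell, and 3 contractile genes rose and 2 fell, while without PSS replicate 1 no mesenchymal marker passed. Snai1, a factor that represses cadherins, was at 6.37, 7.05 and 6.68 CPM in PSS and 12.2, 24.3 and 15.1 CPM in Vortex (log2 fold change 1.36 ± 0.27, adjusted p = 0.0126, 0.0851 with 6 libraries and 0.0722 without PSS replicate 1, with 7 of the 9 fits passing). Its relative Snai2 was at 4.34, 4.57 and 4.41 CPM in PSS and 1.77, 6.72 and 2.62 CPM in Vortex (-0.26 ± 0.49, adjusted p = 0.768). Fibronectin, Fn1, and vimentin, Vim, had overlapping groups, with log2 fold changes of 0.06 ± 0.25 (adjusted p = 0.902) and 0.02 ± 0.24 (adjusted p = 0.968). For Acta2, the actin of smooth muscle, values were 1.26, 1.02 and 1.37 CPM in PSS and 0.631, 0.762 and 0.346 CPM in Vortex, lower in each Vortex library without passing (-1.07 ± 0.50, adjusted p = 0.188). Cald1, caldesmon, fell, at 835, 847 and 874 CPM in PSS and 448, 293 and 451 CPM in Vortex (-1.10 ± 0.19, adjusted p = 0.00795). N-cadherin, Cdh2, fell by a smaller amount (-0.73 ± 0.18, adjusted p = 0.0327, and 0.117 without PSS replicate 1, with 3 of 9 passing). Summed levels of the mesenchymal list were 5948 to 6246 CPM in PSS and 6462, 7172 and 6030 CPM in Vortex replicates 1 to 3, and those of the contractile list 1256 to 1326 CPM and 1244, 843 and 1127 CPM.

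Matrix genes moved in both directions. Collagens rose in 2 and fell in 3 of 23 tested members, integrins and laminins rose in 8 and fell in 4 of 27, and matrix proteases with their inhibitors rose in 7 and fell in 3 of 30. After removal of the GC trend 3 integrins and laminins rose and 3 fell, and without PSS replicate 1 the counts were 1 and 3, with 1 and 1 among proteases and 0 and 2 among collagens. Without Vortex replicate 2 there were 7 rises and 6 falls among collagens, 13 and 6 among integrins and laminins, and 15 and 4 among proteases. Col12a1, a collagen that coats fibrils, was at 113, 112 and 80.8 CPM in PSS and 18.4, 8.72 and 25.1 CPM in Vortex (log2 fold change -2.55 ± 0.35, adjusted p = 0.00462). Lama1, a laminin chain of basement membranes, was at 164, 194 and 108 CPM in PSS and 29.5, 41.1 and 29.2 CPM in Vortex (-2.22 ± 0.25, adjusted p = 0.00277, and 0.0492 with 6 libraries). Col4a1, the main collagen of basement membranes, did not pass (0.35 ± 0.25, adjusted p = 0.386), nor did Col1a1, which was lowest in Vortex replicate 2 (-1.08 ± 0.45, adjusted p = 0.147). Mmp9, a gelatinase, was at 0.657, 0.973 and 0.995 CPM in PSS and 9.52, 0.619 and 11.7 CPM in Vortex (3.05 ± 0.82, adjusted p = 0.0408). Its Vortex replicate 2 was below the PSS range, and it passed in 1 of the 9 fits (adjusted p = 0.149 without PSS replicate 1, and 0.0787 after removal of the GC trend). Adam8, a membrane protease of inflamed tissue, was at 2.53, 3.02 and 1.71 CPM in PSS and 75.6, 6.19 and 33.7 CPM in Vortex (3.99 ± 0.75, adjusted p = 0.0112, and 0.0603 without PSS replicate 3, with 7 of 9 passing).

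Some markers of leukocytes, epithelium and smooth muscle were at or near 0 reads, and other markers of these cells held more. Of 17 macrophage and leukocyte markers 5 passed the filter on low counts and 3 rose, Cd14, Cd68 and Csf1r, of which Csf1r alone passed without PSS replicate 1. There the adjusted p was 0.056 for Cd14 and 0.0621 for Cd68, which passed in 7 and 6 of the 9 fits. Cd68, a lysosomal protein also found outside macrophages, was at 4.75, 4.96 and 3.69 CPM in PSS and 33.2, 7.96 and 36.6 CPM in Vortex, and Csf1r at 1.47, 1.36 and 2.79 and 17.1, 13.1 and 8.64 CPM. Their summed level was 12.9 to 16.8 CPM in PSS and 93.3, 32.3 and 97.1 CPM in Vortex replicates 1 to 3. The defining leukocyte marker Ptprc had at most 1 read in any of the 9 libraries, and the macrophage marker Adgre1 at most 7. Lyz2, a lysozyme of macrophages, had 217 reads in Vortex replicate 3 and at most 23 elsewhere. Epcam, which marks epithelium, had at most 2 reads and Tagln, a defining smooth muscle gene, at most 5. Other smooth muscle genes held more. Cnn1 had at most 8 reads and Myh11 at most 22, and Cald1 was far higher, at the levels given above. Of 16 tested pericyte and fibroblast markers 2 rose and 2 fell, none rose and 1 fell without PSS replicate 1, and 5 rose and 5 fell without Vortex replicate 2. Neural and glial markers gave no call among 8 tested, with a summed level of 161 to 226 CPM in PSS and 70.4, 195 and 116 CPM in Vortex replicates 1 to 3. Of 6 epithelial markers 1 rose, Krt19 (2.05 ± 0.52 on the log2 scale, adjusted p = 0.0332). It passed in 2 of the 9 fits, with an adjusted p of 0.122 without PSS replicate 1, and of 0.0619 after removal of the GC trend. The sums of the epithelial list were 24.8 to 25.2 CPM in PSS and 33.4, 31.2 and 50.3 CPM in Vortex. The part of these markers in the results above was not tested.

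Some of the genes on which the Vortex libraries agreed also differed from HSS, the faster laminar flow. Between Vortex and HSS 1111 genes (7.04%) differed by the same test, of which 690 were higher (4.37%) and 421 lower (2.67%) in Vortex. Of the 74 genes, 18 were higher and 13 lower in Vortex than in HSS. The comparisons with PSS and with HSS share the Vortex libraries, so they are not independent. Aqp8 was at 9.95, 8.91 and 10.3 CPM in HSS replicates 1 to 3, and its log2 difference between Vortex and HSS was 2.32 (adjusted p = 0.00286). Dhx9 was at 503, 517 and 497 CPM in HSS (-1.50, adjusted p = 0.00286) and Mbnl3 at 22.5, 21 and 22.5 CPM (-1.39, adjusted p = 0.00753). For these genes the HSS libraries lay between PSS and Vortex. Selp was at 0.283, 0.392 and 0.263 CPM in HSS, close to its PSS values (3.14, adjusted p = 0.0073). It passed the filter on low counts only through Vortex, so a lower call in Vortex was hardly possible. Mki67 was at 589.5, 595 and 603 CPM in HSS, above PSS, and lower in Vortex (-2.13, adjusted p = 0.0102). Atf4 was higher in Vortex than in HSS, where it was at 231, 241 and 233 CPM (1.10, adjusted p = 0.00825). Fdft1 and Sqle, which make squalene and its epoxide in the sterol pathway, were higher in Vortex than in HSS (1.54, adjusted p = 0.00888, and 0.82, adjusted p = 0.0219) although neither rose nor fell against PSS. By contrast Ccl20, at 23.3, 24.4 and 21.5 CPM in HSS (adjusted p = 0.379), Cebpd, at 39, 45.2 and 46.3 CPM (adjusted p = 0.587), and Lgals3bp, at 285, 293 and 298 CPM (adjusted p = 0.949), did not pass between Vortex and HSS.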

How the data were processed

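Polyadenylated RNA of 9 bEnd.3 libraries was sequenced, 3 each for PSS, HSS and Vortex, and samples were grouped by the labels. Per the submitters' processing notes the authors used HISAT2 and HTSeq 0.13.5 with the build GRCm39, and whether strand was used in counting is not stated, so antisense and overlapping genes are uncertain. The authors deposited whole-number counts per gene, used here without change, and FPKM values scaled by gene length. In 100% of 27767 genes with values, the deposited count, FPKM and column total gave 1 gene length within a relative tolerance of 1e-06.

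The analysis ran in R 4.3.3, and used from edgeR 4.0.16: filterByExpr over the 3 groups, TMM, a robust quasi-likelihood fit of all 9 libraries with 1 mean per group, the quasi-likelihood F test and Benjamini-Hochberg adjustment over 15774 genes. Standard errors were computed from the fold change on the log2 scale and F, and log2 CPM used a prior count of 2. The Vortex libraries spread most, so a shared spread can make their p-values too small. The biological coefficient of variation was 0.350, and 0.421 with 6 libraries and 0.184 without Vortex replicate 2. An exact permutation test of 3 against 3 cannot give a p below 0.1. The procedure was tested on simulated counts with the same spread in every group. These held no library that stands apart and no GC trend, so the test does not cover those features of the Vortex libraries.

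The members, the 45 gene lists (1060 of 1075 symbols matched) and the tests were chosen with earlier results of these data known, so no list is independent evidence. Named genes are, first, the 12 rises and 12 falls past the threshold, with at least 5 CPM in the higher group and groups that do not overlap, whose Vortex library nearest to the PSS mean differs most from it. Further named genes are the 10 with the smallest adjusted p with 6 libraries and the same limit of 5 CPM, the 3 with the smallest p of each list described, and 20 fixed genes. All other genes named were chosen after their values were seen. Not all genes taken by the rule are reported here. Alternatives were other scaling and filters, a replicate block, removal of a smooth GC trend (lowess span 0.3, GC content from GENCODE M21 transcripts for 98.5% of tested genes), DESeq2 1.42.0, limma 3.58.1 with voom or log2 FPKM, the fit of 6 libraries and leaving out each library. No coordinates on GRCm39 are given.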

Additional observations from a re-analysis of the deposited data

How the results depend on the processing

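Of the choices tried, the libraries in the fit moved the counts most. Against 2107 genes that differed, 1314 higher and 793 lower, the 6 compared libraries alone gave 74 (40 higher, 34 lower), and the same fit without Vortex replicate 2 gave 3664 (2149 and 1515). Leaving out 1 library gave 519 to 5888 genes, 295 to 3190 higher and 224 to 2698 lower, in each case lowest without PSS replicate 1 and highest without Vortex replicate 2. Removal of the GC trend without that replicate gave 6093 (3223 and 2870), and with it 1485. The DESeq2 Wald test called 3489 (2023 and 1466). Library totals gave 835 higher genes, no filter beyond 1 count 771, and limma on log2 FPKM 743 higher and 1484 lower with a pseudocount of 1 and 746 and 1379 with 0.1. The replicate number as a block gave 1258 genes (741 and 517). Whether the numbers pair the samples was not settled. Deviations of same-numbered PSS and Vortex libraries from their group means correlated at 0.118, -0.0489 and 0.0966 across genes. Vortex replicate 2 stands apart and enters the Vortex mean, so these values cannot decide it. The direction of some genes also turned. After removal of the GC trend the log2 fold change was 0.46 for mt-Nd2 (adjusted p = 0.445) and 0.10 for Ccne2 (adjusted p = 0.934). Leaving out 1 library, it ran from -0.57 to 0.64 for Cdh5, from -0.88 to 1.13 for Nos3 and from -1.75 to 0.46 for Klf2, lowest in each case without Vortex replicate 2. With the GC trend also removed it was -0.68, -1.14 and -1.96, and with the PSS libraries and Vortex replicates 1 and 3 alone -0.88 for Nos3 and -1.75 for Klf2. The cause was not tested, and a fit that leaves out a library also holds fewer libraries. Depth limits genes near 1 CPM, of which a library holds about 20 reads.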
